A study of Mus musculus with 12 samples.

Results

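A set of 10 genes of transforming growth factor beta (TGF-beta) and activin signalling were followed in hair follicle stem cells (HFSCs), the stem cells of the hair follicle bulge. They were picked by name, with earlier results of these data known. The set held ligand genes Tgfb1, Tgfb2, Tgfb3, Inhba and Inhbb, receptor genes Tgfbr1 and Tgfbr2, and inhibitor genes Fst, Tmeff1 and Smad7. All 10 were found by symbol in both expression tables, among 21942 genes that appeared in at least 1 table, and all 10 passed the filter on low values in both. HFSCs of C57BL/6J mice had been sorted from back skin on CD34+, α6-integrin high, EpCAM+ and Sca1-, and their RNA was sequenced in 12 libraries, 3 for each of 4 groups. The anagen group (hair growth, postnatal day 28 to 30) and the telogen group (hair rest, postnatal day 50 to 52) were wildtype, so stage and age cannot be told apart. The Eed iKO group was labelled Eed -/- and came from K15-CrePGR mice homozygous for floxed Eed, which encodes a core part of Polycomb repressive complex 2 (PRC2), the complex that places the repressive histone mark H3K27me3. Its Cre is driven by the keratin 15 promoter in the bulge and hair germ and works only after RU-486. RU-486 at 10 mg/ml was put on shaved back skin once per day for 7 days from postnatal day 50, and cells were taken on postnatal day 70. The control group had the same age and was labelled wildtype, and the methods state that control skin received the ethanol carrier. Loss of Eed and RU-486 therefore cannot be told apart.

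TGF-beta ligands are secreted in a latent form, released by integrins and other activators, and signal through a complex of TGFBR2 and TGFBR1 that phosphorylates SMAD2 and SMAD3. Activins are dimers of inhibin beta subunits that use activin receptors and the same SMADs. In the hair follicle, TGF-beta2 from the dermal papilla is known to help the hair germ leave rest by inducing Tmeff1, while TGF-beta and activin signals are also known as brakes on epithelial cell division.

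Promoter sequence from RefSeq (GRCm38.p6) was at hand for 7 of the 10 genes. The 250 bases before the start of both activin subunit genes are shown because Inhbb differed between hair cycle stages while the values of Inhba overlapped. Capitals mark any match, on either strand, to the TATA motif TATAAA, the GC box GGGCGG, the SMAD motif CAGACA, the SMAD palindrome GTCTAGAC or the cAMP response motif TGACGTCA.
Inhbb (minus strand, chr1:119422249-119422498): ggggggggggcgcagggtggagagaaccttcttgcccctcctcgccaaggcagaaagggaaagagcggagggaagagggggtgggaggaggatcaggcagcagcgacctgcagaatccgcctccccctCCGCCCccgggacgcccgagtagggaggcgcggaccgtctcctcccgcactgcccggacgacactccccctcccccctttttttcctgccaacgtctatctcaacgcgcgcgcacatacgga
Inhba (plus strand, chr13:16011601-16011850): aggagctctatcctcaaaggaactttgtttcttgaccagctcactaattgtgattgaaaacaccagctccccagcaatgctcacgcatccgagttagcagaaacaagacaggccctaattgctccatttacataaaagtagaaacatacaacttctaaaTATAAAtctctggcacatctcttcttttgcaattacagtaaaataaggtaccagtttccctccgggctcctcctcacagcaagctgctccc
The Inhbb window had 68% G or C and 21 CpG dinucleotides, with 1 match to GGGCGG, a motif that 32.7% of 32851 such windows of the genome held. The Inhba window had 43.2% G or C and 3 CpG dinucleotides, with 1 match to TATAAA, held by 12.4% of windows. The medians over all windows were 52.4% and 6. Neither window held the SMAD motif (in 17.1% of windows), the SMAD palindrome (0.167%) or the cAMP response motif (1.55%). A match is one of letters only.

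The 10 genes are spread over the mouse genome (GRCm38, GENCODE vM21). Inhbb (1:119415465-119422248) and Tgfb2 (1:186622792-186705989) lie on chromosome 1, Tgfbr1 (4:47353222-47414931) and Tmeff1 (4:48585174-48663131) on chromosome 4, and Inhba (13:16011851-16031621) and Fst (13:114452290-114458951) on chromosome 13. Tgfb1 lies on chromosome 7 (25687002-25705077), Tgfbr2 on chromosome 9 (116084293-116175360), Tgfb3 on chromosome 12 (86056745-86079041) and Smad7 on chromosome 18 (75367529-75395935). The exons of 7 of the 10 genes overlapped no exon of another annotated gene. Tgfb3 shared 12.4% of its exon bases with the gene models Gm37804 and Gm48008, Fst shared 2.51% and Tgfb2 2.14%, each with 1 gene model. The libraries were made with a kit that keeps no strand, so reads in those shared bases cannot be assigned to 1 gene by strand.

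Values are normalized counts as deposited. In the Eed iKO table they were whole reads per gene scaled by 1 constant per library, which was not seen in the hair cycle table. The tables were normalized separately, so values were compared only within a table. The sort was checked against markers first. The 11 bulge markers, among them Krt15, were present in all 12 libraries. Markers of other cells were also present. Means in anagen and telogen were 185 and 393 for Col1a2 and 287 and 67.0 for Col1a1 (fibroblasts). For Dct (melanocytes) they were 543 and 96.2. The defining markers Lum and Sox10 of the fibroblast and melanocyte lists were at or near 0 in these libraries. Krt10 of interfollicular epidermis had means of 6648 and 8310, above the bulge marker Lgr5 at 3614 and 4492. The 5 markers of interfollicular epidermis summed to 4144 to 12640 in anagen and 7621 to 15220 in telogen. In the Eed iKO table, Col1a2 had means of 1944 in control and 1363 in Eed iKO. Telogen replicate 1 had the lowest sum of the 11 bulge markers, 236658 normalized counts against 531766 or more in the other telogen and anagen libraries. This sum mostly follows the keratin genes Krt15 and Krt5, with telogen means of 303205 ± 143150 and 112761 ± 55262 (SD, n = 3). Cd34, by contrast, had a telogen mean of 7963 ± 1393. In the second table, the 5 markers of interfollicular epidermis summed to 39750 in control replicate 3 and 57525 in Eed iKO replicate 3, against 4474 to 13225 in the other 4 libraries. Eed, the targeted gene, had normalized counts of 1084, 1249 and 950.2 in control and 933, 1361 and 1001 in Eed iKO, so the labelled loss was not seen in its summed mRNA (log2 fold change -0.01, limma with Benjamini-Hochberg adjustment, adjusted p = 0.993). Whether only the floxed exons were missing from the message cannot be read from a sum over the whole gene, and was not tested. Eed iKO below means the libraries labelled so, and directions rest on these labels. In sorted bulk RNA, fewer cells of a type and less RNA per cell cannot be told apart.

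To see how the signalling genes differ between growth and rest, anagen was compared with telogen. Tgfb3 and Inhbb, both ligand genes, were higher in anagen, by 8.76-fold and 2.75-fold. These were the 2 of 10 genes with an adjusted p under 0.05 (limma on log2(normalized count + 1), Benjamini-Hochberg adjustment over the 13457 genes tested), and none was lower. Among all genes tested, 11.6% passed, 7.22% higher and 4.35% lower in anagen. The 10 genes were chosen with earlier results of these data known, so the shares are set side by side as a description only. An unadjusted p under 0.05 was met by 4 of the 10 and by 27.3% of all genes tested, and the thresholds of the methods (a log2 fold change over 2 in either direction with an unadjusted p under 0.05) by Tgfb3 alone and by 5.1%. The median log2 fold change was 0.38 over the 10 genes and 0.01 over all genes tested.

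Tgfb3, which encodes TGF-beta3, had normalized counts of 177, 124 and 84.8 in telogen replicates 1 to 3 and 1157, 1011 and 1094 in anagen replicates 1 to 3. Every anagen library was more than 5 times as high as every telogen library, and the anagen values lay close together. The log2 fold change (log2FC) was 3.13 (SE, the standard error, 0.30, adjusted p = 0.000128 from limma), and it ranged from 2.86 to 3.39 over 11 alternatives, in each of which it passed.
Inhbb encodes the beta B subunit that pairs to form activin B. Its normalized counts were 221, 292 and 296 in telogen and 740.5, 811 and 665 in anagen. The groups did not overlap, and the gap between them was wider than the spread within either. The log2FC was 1.46 (SE 0.25, adjusted p = 0.00385 from limma), between 1.32 and 1.53 over the same 11 alternatives, again past the threshold in each.

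The other ligand genes did not pass. Tgfb2, which encodes TGF-beta2, had normalized counts of 215, 181 and 191 in telogen and 243, 273 and 296 in anagen. The anagen libraries were all above the telogen libraries, by a log2FC of 0.47 (SE 0.28, limma adjusted p = 0.312). Tgfb1, which encodes TGF-beta1, overlapped between stages at 93.5, 78.1 and 137 in telogen and 139, 104 and 123 in anagen. Inhba, which encodes the beta A subunit of activin A, was the gene with the lowest counts of the 10, at 32.4, 53.8 and 94.6 in telogen and 68.6, 23.5 and 33.9 in anagen. Its libraries were spread over a wide range within each stage, and its 95% confidence interval for the log2FC ran from -1.81 to 0.77.

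**Figure D1:**
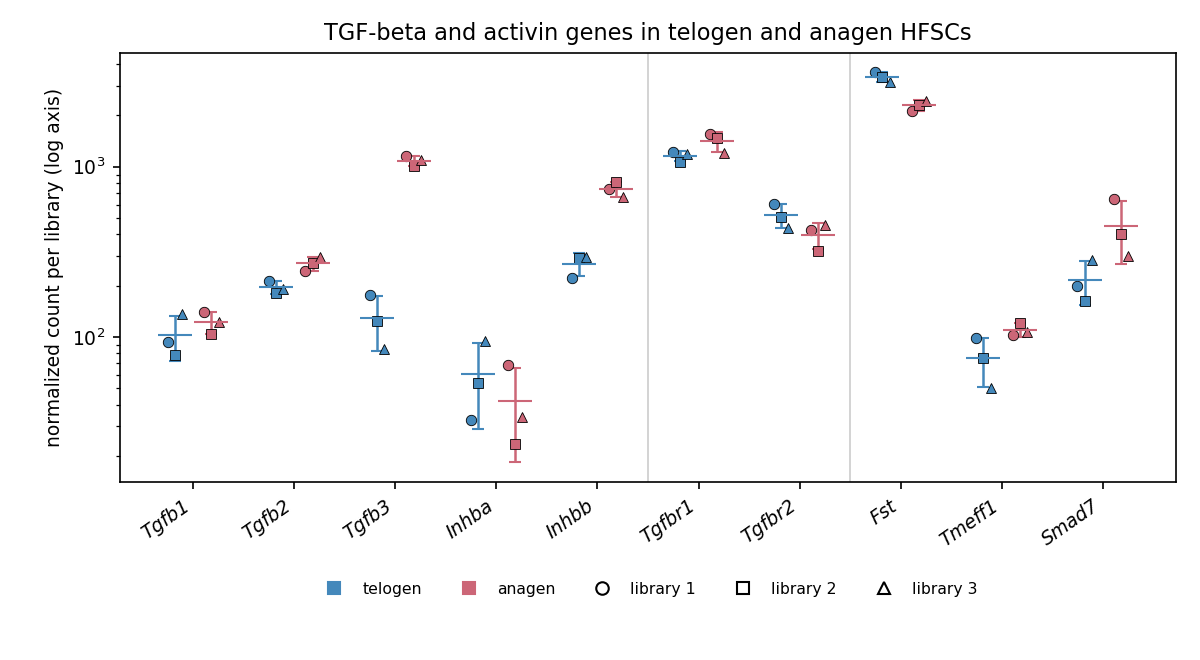
Normalized count (log axis) of each of the 10 genes in the 3 telogen and 3 anagen libraries, with points for libraries, a line for the mean and bars for the SD. Tgfb3 and Inhbb are the genes whose anagen points lie farthest above telogen, and Fst is the one whose anagen points all lie below telogen.

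The receptor genes overlapped between the stages. Tgfbr1, which encodes the type I TGF-beta receptor, had normalized counts of 1213, 1066 and 1184 in telogen and 1561, 1481 and 1197 in anagen, with a log2FC of 0.28 (95% confidence interval -0.15 to 0.72, limma adjusted p = 0.384). Tgfbr2, which encodes the type II receptor that binds ligand, had 606, 509 and 439 in telogen and 424, 318 and 452 in anagen, with a log2FC of -0.38 (95% confidence interval -0.95 to 0.18, limma adjusted p = 0.365). The intervals leave room for changes in either direction for both receptor genes.

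None of the 3 inhibitor genes passed the adjusted threshold, although their groups did not overlap. Fst encodes follistatin, a secreted protein that binds activins, and its normalized counts were 3583, 3369 and 3134 in telogen and 2124, 2317 and 2443 in anagen. All anagen libraries were below all telogen libraries, with a log2FC of -0.55 (SE 0.17, limma adjusted p = 0.0632, between 0.0595 and 0.242 over 11 alternatives). Smad7, which encodes an intracellular inhibitor of TGF-beta receptors and is itself a TGF-beta target, had 201, 163 and 285 in telogen and 644, 400.0 and 297 in anagen. Its lowest anagen library was only slightly above its highest telogen library, and the log2FC of 1.01 had a SE of 0.35 and a limma adjusted p of 0.0876. Tmeff1, a transmembrane protein with follistatin-like domains that is known to restrain BMP signalling, had 98.5, 75.7 and 50.1 in telogen and 102, 121 and 107 in anagen (log2FC 0.60, SE 0.41, limma adjusted p = 0.373). In all, 6 of the 10 genes had groups that did not overlap, 5 higher and 1 lower in anagen, against 33.3% of all genes tested, 18.1% higher and 15.2% lower.

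Other cell states moved with the hair cycle stage. All 6 markers of dividing cells rose in anagen, and their summed normalized count was 16330 to 27083 in anagen and 627 to 819 in telogen. The 7 markers of transit amplifying cells and hair germ summed to 2449 to 2540 in anagen and 1179 to 2002 in telogen. Of 5 tested, Msx2 alone passed, and it was lower in anagen. The 3 inner bulge markers summed to 2801 to 3409 in anagen and 3846 to 5690 in telogen, and none passed. The 7 melanocyte markers summed to 441 to 811 in anagen and 108 to 160 in telogen, mostly through Dct, which was the 1 melanocyte marker of the 4 tested that passed. The 7 markers of dermal fibroblasts and papilla summed to 569 to 685 in anagen and 356 to 797 in telogen, with Col1a1 the 1 of 4 tested that passed, at 214, 227 and 419 in anagen and 65.5, 45.5 and 89.9 in telogen. Of the 11 bulge markers, 1 passed lower and 1 higher in anagen, both genes of the sort gate. Cd34 was lower in anagen (3444 ± 622 against 7963 ± 1393, SD, n = 3, limma adjusted p = 0.00382). Itga6, which encodes α6-integrin, was higher in anagen (11220 ± 604 against 5871 ± 1473, SD, n = 3, limma adjusted p = 0.0144). The part of these differences in the results for Tgfb3 and Inhbb was not tested.

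**Figure D2:**
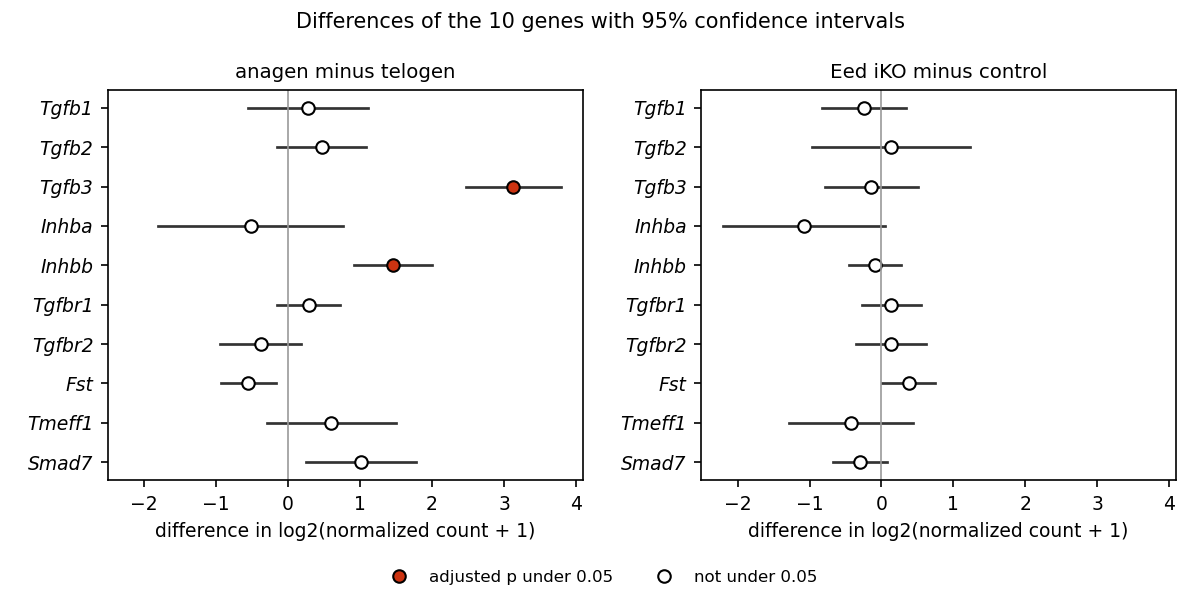
Difference in log2(normalized count + 1) of each of the 10 genes, anagen minus telogen on the left and Eed iKO minus control on the right, with bars for the 95% confidence interval and filled points for an adjusted p under 0.05. The filled points are Tgfb3 (3.13) and Inhbb (1.46) on the left, and no point is filled on the right.

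To compare levels between genes, normalized counts were divided by the length in kilobases of the longest protein-coding transcript, giving a level per kilobase. Fst had the highest level in both stages, 1187 ± 79.2 per kilobase in telogen and 809.95 ± 56.7 in anagen (SD, n = 3), well separated from the next gene. Tgfb3 ranked 8 of 10 in telogen, at 38.0 ± 13.6, and 2 of 10 in anagen, at 321 ± 21.7. With the union of all exons as the length, Tgfb3 ranked 6 in telogen and 2 in anagen, and Inhbb ranked 3 and 4. With the longest transcript, Inhbb kept rank 4, and its level per kilobase was 63.4 ± 9.90 in telogen and 174 ± 17.1 in anagen. In telogen the libraries of the genes from rank 3 (Tgfbr2) to rank 9 (Tmeff1) overlapped, each with the next in order. In anagen the 5 highest (Fst, Tgfb3, Tgfbr1, Inhbb and Smad7) were each separated from the next, and Tgfb1, Tgfb2, Tgfbr2 and Tmeff1 overlapped, each with the next. Inhba was last in both stages, at 9.43 ± 4.94 and 6.57 ± 3.70.

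The makeup of the TGF-beta ligand messages is given as a description with no test, since it was computed after the values were seen. Tgfb3 made up 38.1%, 34.0% and 20.0% of the summed level per kilobase of Tgfb1, Tgfb2 and Tgfb3 in telogen replicates 1 to 3, and 75.4%, 74.7% and 73.9% in anagen. The highest share of any ligand gene in telogen was 50.2% (Tgfb1 in replicate 3), and in anagen Tgfb3 alone made up most of the sum in every library. With the union of all exons as the length, the mean share of Tgfb3 was 40.6% in telogen and 81.9% in anagen. The level per kilobase of Fst was 24.3, 17.3 and 15.9 times that of Inhbb in the telogen libraries and 4.31, 4.29 and 5.51 times in the anagen libraries. With exon union lengths, these factors were 15.0, 10.7 and 9.81 in telogen and 2.66, 2.65 and 3.40 in anagen. Follistatin message thus exceeded activin beta B message in each of these 6 libraries, by a smaller factor in anagen. Messages and not proteins were measured.

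**Figure D3:**
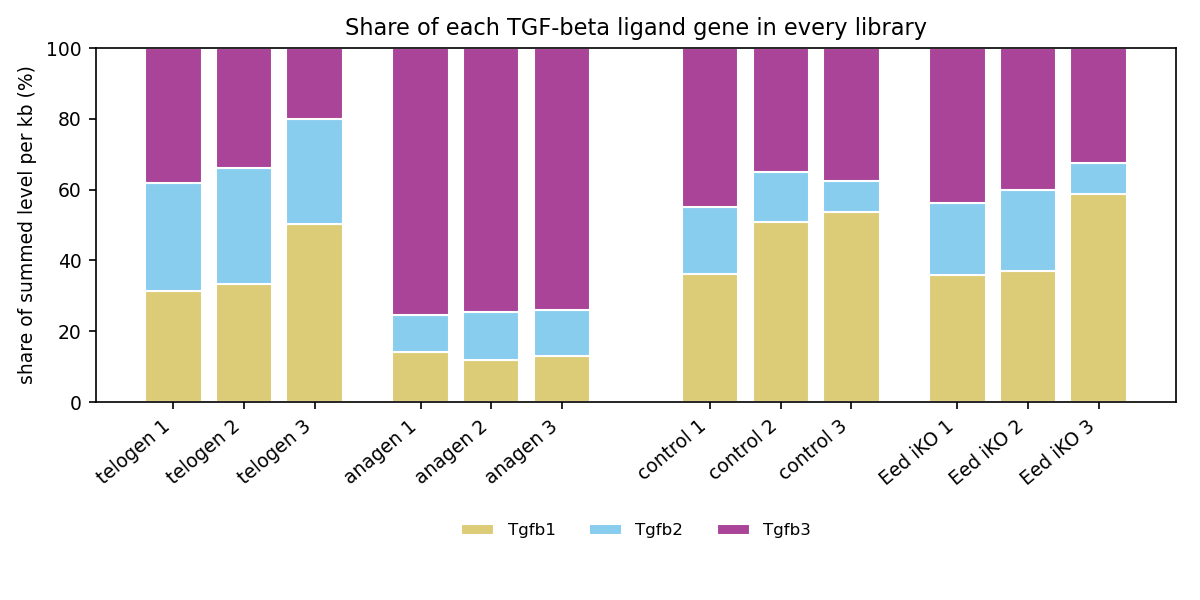
Share (%) of Tgfb1, Tgfb2 and Tgfb3 in their summed level per kilobase, with 1 bar for each of the 12 libraries, the hair cycle table on the left and the Eed iKO table on the right. The Tgfb3 share is 73.9% to 75.4% in anagen, 20.0% to 38.1% in telogen and 32.5% to 44.9% in the control and Eed iKO libraries. The share depends on the length used. With exon union lengths (not drawn) it is 81.1% to 83.1% in anagen and 29.5% to 48.4% in telogen. In the other table it is then 50.3% to 58.1% in control and 49.5% to 56.8% in Eed iKO.

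A list of 50 further genes of the pathway, also chosen with earlier results of these data known, was read from the same fit. Of the 40 that passed the filter, 3 were higher and 5 were lower in anagen at an adjusted p under 0.05, against 7.22% higher and 4.35% lower among all genes tested. Their median log2FC was 0.08, against 0.01 over all genes. By role, 3 of 9 genes of latency and activation changed, 2 of 6 receptor genes, 2 of 12 inhibitor genes, 1 of 6 target genes, and none of 3 ligand genes or 4 SMAD and anchor genes. Among the latter, Smad2, Smad3 and Smad4, the signal transducers, did not pass.

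Among genes that release TGF-beta from its latent form, Itgb6 was higher and Thbs1 was lower in anagen. Itgb6, the beta subunit of the epithelial integrin that activates latent TGF-beta1 and TGF-beta3, had normalized counts of 2526, 2637 and 3024 in telogen and 7783, 8316 and 8290.3 in anagen (log2FC 1.58, SE 0.17, limma adjusted p = 0.000214). Thbs1, which encodes thrombospondin 1, had 2123, 3215 and 2439 in telogen and 452, 412 and 382 in anagen (log2FC -2.62, SE 0.22, limma adjusted p = 5.48e-05). Neither gene's groups overlapped, and the directions were opposite. Ltbp2, a matrix protein of the latent TGF-beta binding family that is not known to carry TGF-beta itself, had 1786, 1627 and 2591 in telogen and 449.6, 563 and 821 in anagen (log2FC -1.72, SE 0.27, limma adjusted p = 0.00266).

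The receptor genes that passed were both lower in anagen. Acvrl1, a type I receptor best known from endothelial cells, had 114, 180.2 and 231 in telogen and 23.8, 50.7 and 45.8 in anagen (log2FC -2.11, SE 0.47, limma adjusted p = 0.0151). Tgfbr3, the coreceptor betaglycan, had 242, 554 and 234 in telogen and 60.4, 125 and 127 in anagen (log2FC -1.67, SE 0.44, limma adjusted p = 0.0332). Each anagen group lay below its telogen group. Without anagen replicate 1, both missed the threshold, with log2FC values of -1.78 and -1.32. Acvrl1 also missed it without telogen replicate 3 (-1.88), and Tgfbr3 without anagen replicate 2 (-1.84), anagen replicate 3 (-1.85) or telogen replicate 2 (-1.26).

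The inhibitor genes that passed were higher in anagen, and the target gene was lower. Pmepa1, a TGF-beta target that sequesters SMADs, had 58.6, 29.8 and 41.5 in telogen and 281, 407 and 129.9 in anagen (log2FC 2.53, SE 0.49, limma adjusted p = 0.00771). Dcn encodes decorin, a matrix proteoglycan made by fibroblasts, and was at 0, 0.644 and 1.47 in telogen and 38.5, 27.2 and 15.7 in anagen (limma adjusted p = 0.0106), so that it was barely detected in telogen and low in anagen. Its log2FC was 4.05 with the pseudocount of 1 and 5.71 with a pseudocount of 0.1. Ccn2, a matrix protein gene induced by TGF-beta and also by YAP, had 8972, 5761 and 4995 in telogen and 873, 985 and 1340.3 in anagen, with no overlap (log2FC -2.60, SE 0.25, limma adjusted p = 0.000129). Known TGF-beta targets therefore lay in both directions, since Pmepa1 was higher and Ccn2 lower in anagen. Without anagen replicate 1 or 2 Dcn missed the threshold, and without anagen replicate 2 so did Pmepa1 (log2FC values 3.77 and 4.01 for Dcn, and 2.17 for Pmepa1). Ccn2 shared 23.2% of its exon bases with the gene model Gm15270.

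**Figure D4:**
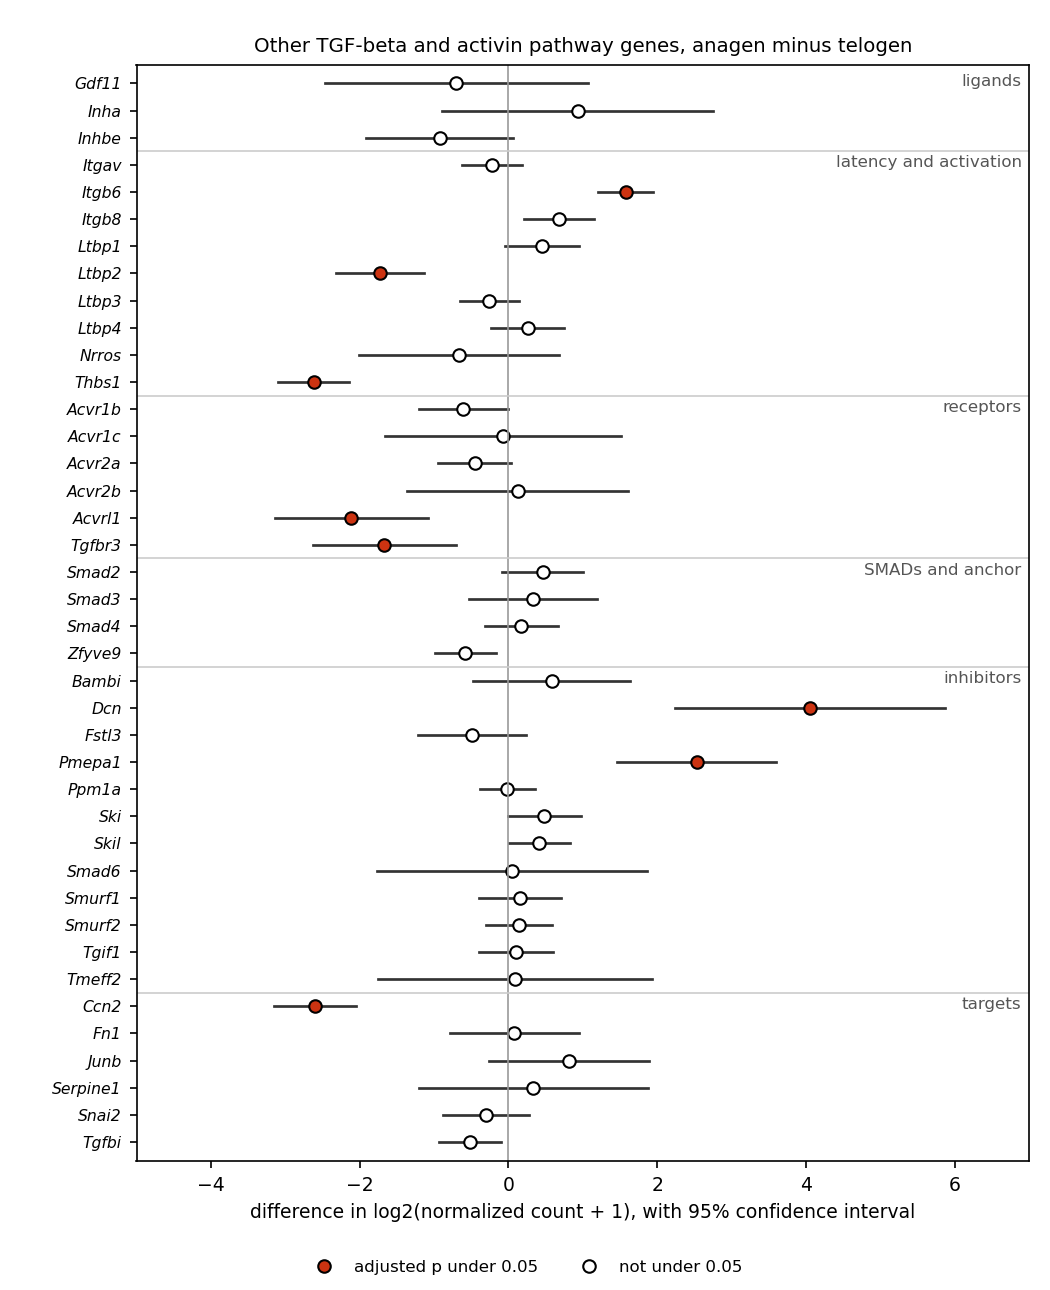
Difference in log2(normalized count + 1), anagen minus telogen, of the 40 further pathway genes that passed the filter, grouped by role, with bars for the 95% confidence interval and filled points for an adjusted p under 0.05. Filled points lie on both sides of 0, from Thbs1 at -2.62 to Dcn at 4.05, a value that depends on the pseudocount of 1.

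To ask whether these genes differ in resting HFSCs after labelled Eed loss with RU-486, the libraries labelled Eed iKO were compared with control. None of the 10 genes had an adjusted p under 0.05, by limma, by the quasi-likelihood test of edgeR or by DESeq2, and 1 of 10 had an unadjusted p under 0.05 in limma. Among all 15008 genes tested, limma called 4 (0.0267%), edgeR 5 (0.0333%) and DESeq2 673 (4.48%). In limma, 14.7% had an unadjusted p under 0.05 and 1.75% met the thresholds of the methods (a log2FC over 1.5 in either direction with an unadjusted p under 0.05), as none of the 10 did. The groups overlapped for each of the 10 genes, where they did not overlap for 20.2% of all genes tested. The median log2FC was -0.12 over the 10 genes and -0.0011 over all genes tested.

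Fst was the gene with the unadjusted p under 0.05. Its normalized counts were 10647, 11624 and 15780.5 in control and 14644, 17508 and 16646 in Eed iKO. Control replicate 3 lay above Eed iKO replicate 1, so the groups overlapped by 1 library on each side. The log2FC was 0.38 (SE 0.17, limma adjusted p = 0.324), and the adjusted p ranged from 0.113 to 0.611 over 14 alternatives.
Inhba had the largest difference of the 10, at 273, 289 and 127 in control and 97.8, 170.0 and 63.3 in Eed iKO. The third library of each group was its lowest, and control replicate 3 lay below Eed iKO replicate 2. The log2FC was -1.08 (SE 0.51, 95% confidence interval -2.20 to 0.05, limma adjusted p = 0.359).

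Tgfb3 and Inhbb, the genes higher in anagen, were at like levels in both groups of the Eed experiment. Tgfb3 had 1157, 1201 and 1156 in control and 1455, 1304 and 633 in Eed iKO, so that Eed iKO replicate 3 was the low library (log2FC -0.14, 95% confidence interval -0.78 to 0.50, limma adjusted p = 0.862). Without that library the log2FC turned to 0.23. Inhbb had 1819.8, 1844 and 2136 in control and 1919, 1902 and 1613 in Eed iKO (log2FC -0.09, 95% confidence interval -0.46 to 0.27, limma adjusted p = 0.832). For both genes, the upper bound lay below the lower bound of the anagen comparison, 2.47 for Tgfb3 and 0.92 for Inhbb, although the tables were normalized separately and the difference between the comparisons was not tested.

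Tgfb2 was low in both libraries numbered 3. It had 737, 741 and 413 in control and 1014, 1125 and 261 in Eed iKO, and its log2FC of 0.13 (95% confidence interval -0.97 to 1.24, limma adjusted p = 0.928) changed sign when control replicate 3 (-0.15), Eed iKO replicate 1 (-0.17) or Eed iKO replicate 2 (-0.24) was left out. Tgfb1 had 600.1, 1121 and 1064 in control and 766, 774 and 735 in Eed iKO, with the 3 Eed iKO libraries between the control libraries. Without both libraries numbered 3, an alternative chosen after the data were seen, none of the 10 genes passed, while 169 of all genes did.

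**Figure D5:**
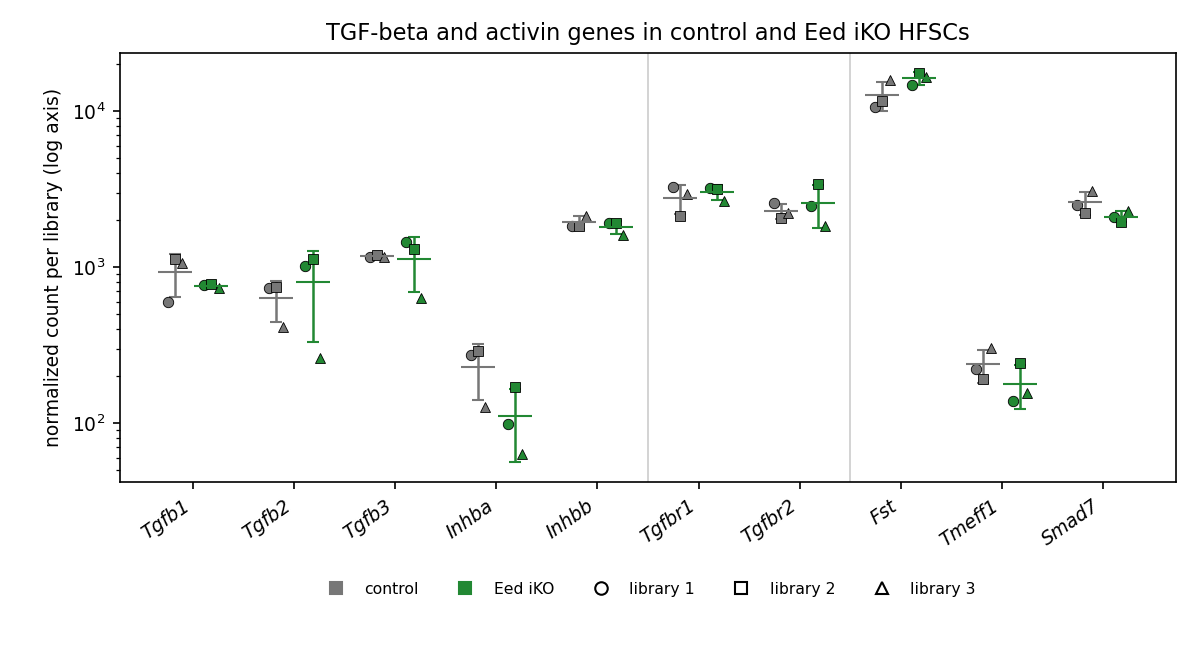
Normalized count (log axis) of each of the 10 genes in the 3 control and 3 Eed iKO libraries, with points for libraries, a line for the mean and bars for the SD. The points of the groups overlap for every gene, and the triangles of library 3 lie lowest in both groups for Tgfb2 and Inhba.

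The receptor and remaining inhibitor genes overlapped as well. Tgfbr1 ranged from 2125 to 3253 in control and from 2636 to 3217 in Eed iKO, and Tgfbr2 from 2068 to 2561 and from 1832 to 3401. Smad7 ranged from 2227 to 3070.1 in control and from 1940.2 to 2284 in Eed iKO (log2FC -0.29, SE 0.17, limma adjusted p = 0.447). Tmeff1 ranged from 192 to 302 in control and from 138 to 243 in Eed iKO. Per kilobase, Fst again had the highest level of the 10 and Inhba the lowest in both groups, with means of 4477 and 36.0 in control and 5742 and 17.3 in Eed iKO (n = 3). Fst message per kilobase was 8.79 to 11.1 times that of Inhbb in control and 11.5 to 15.5 times in Eed iKO, or 5.42 to 6.85 and 7.07 to 9.57 times with exon union lengths, a description with no test.

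Of the 50 further pathway genes, 48 were listed in this table, 42 passed the filter and none had an adjusted p under 0.05 by limma, edgeR or DESeq2. Unadjusted in limma, 5 of the 42 had a p under 0.05, 3 lower and 2 higher, against 6.33% lower and 8.38% higher among all genes tested. The 3 lower ones encode activin receptors. Of the 7 receptor genes of this list that were tested, 3 had a positive log2FC (Acvr1c 0.04, Tgfbr3 0.0043 and Acvrl1 0.27) and 4 a negative one. Eng, also lower, had means of 103 in control and 49.0 in Eed iKO, with overlap (log2FC -1.27, limma adjusted p = 0.539). Acvr1b (type I) had 6438, 7845 and 8414 in control and 5869.8, 5775 and 5573 in Eed iKO, with no overlap (log2FC -0.39, SE 0.14, limma adjusted p = 0.235). Acvr2b (type II) did not overlap either, at 999.7, 1134 and 836 in control and 651, 811 and 634 in Eed iKO (log2FC -0.50, SE 0.22, limma adjusted p = 0.325). Acvr2a (type II) overlapped, at 9691, 7764 and 6765 in control and 5373, 7267 and 4653 in Eed iKO (log2FC -0.50, SE 0.19, limma adjusted p = 0.267).
The 2 higher ones were Pmepa1, listed as an inhibitor and also a TGF-beta target, and Ccn2, listed as a target. Pmepa1 had 243, 424 and 237 in control and 852, 521 and 434 in Eed iKO (log2FC 0.99, SE 0.35, limma adjusted p = 0.230). Ccn2 had 37229, 55479.9 and 62072 in control and 78839, 115992 and 59498 in Eed iKO (log2FC 0.70, SE 0.26, limma adjusted p = 0.245). The Pmepa1 groups were separated by a narrow gap, and the Ccn2 groups overlapped at Eed iKO replicate 3. Markers of dividing cells summed to 10298, 9935 and 1003 in Eed iKO replicates 1 to 3 and to between 1346 and 3659 in control, so that Eed iKO replicate 3 stood apart there too. Markers of transit amplifying cells and hair germ summed to 12399 to 14024 in Eed iKO and 8384 to 12295 in control. None of the 6 tested passed. The part of these marker differences in the values of the pathway genes was not tested.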

How the data were processed

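RNA of sorted HFSCs was sequenced in 12 libraries, and the sample titles gave groups and replicate numbers. Per the labels and methods, the authors aligned reads to transcripts of Gencode vM20 (build mm10) with kallisto 0.42.5 and compared groups with DESeq2. Each deposited value is a signal, a normalized count of a gene in a library. The deposited tables also hold the authors' fold changes and p-values, which were not used.

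Each table was fitted on its own with limma 3.58.1 (R 4.3.3) on log2(value + 1), a scale that understates the change of low genes, with an intensity trend and a two-sided test. Genes were filtered with filterByExpr of edgeR 4.0.16 at a count minimum of 10. The filter left 13457 of 21915 genes in the hair cycle table and 15008 of 17885 in the Eed iKO table. Genes were called changed at an adjusted p under 0.05 (Benjamini-Hochberg), and no p was adjusted over a gene list alone. The SD or 95% confidence interval stands beside values where given. The paper describes the control and Eed iKO libraries as biological replicates drawn from more than 1 litter, and the hair cycle cells as coming from several animals, without saying which animals went into which library. The functions were tested on simulated data.

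In the Eed iKO table, 100% of values were whole multiples of 1 constant per library (within 0.02 reads), giving 33269583 to 57063586 reads per library, and edgeR and DESeq2 1.42.0 were run on these reads. In the hair cycle libraries, only 3.49% to 6.04% of values were such multiples, so reads were not recovered and the depth is unknown. How those values were scaled was not established.

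The members and gene lists were chosen with earlier results of these data known. The genes named are the 10 members and, from the pathway list, those with an adjusted p under 0.05 (hair cycle) or an unadjusted p under 0.05 (Eed iKO), at most 14 in each by size of the log2 fold change. Smad2, Smad3 and Smad4, and marker genes beside a result, are named in addition. Alternatives were a pseudocount of 0.1, no filter, a block for the replicate number, libraries left out in turn, TMM scaling, no intensity trend, the thresholds of the methods (log2 fold change over 2 or 1.5 with unadjusted p under 0.05), edgeR, DESeq2, exon union lengths and, added after seeing the data, removal of both libraries numbered 3. Coordinates and lengths came from GENCODE vM21, in which 10 of 10 genes matched by identifier, and promoters from RefSeq.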

Additional observations from a re-analysis of the deposited data

How the results depend on the processing

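In the hair cycle comparison, the count of 10 genes called stayed at 2 under every alternative but the thresholds of the methods, which left 1 (Tgfb3). The 8 further pathway genes became 5 under those thresholds and 5 to 8 when libraries were left out in turn, and the 1556 of all genes became 842 without the intensity trend, 686 under the thresholds of the methods and 590 to 1534 with libraries left out. Tgfbr3 also missed the threshold without the trend. In the Eed iKO comparison, the count of 10 genes called stayed at 0 under every alternative, while the 4 of all genes became 2 without the trend, 263 under the thresholds of the methods, 673 with DESeq2, 169 without both libraries numbered 3 and 1 to 188 with libraries left out, the high count being that without Eed iKO replicate 3. With a block for the replicate number, 424 genes were called there, and in the hair cycle 1224 in place of 1556, with 2 and 0 of the 10 genes as before. Deviations of same-numbered libraries had correlations of 0.04, 0.07 and 0.19 in the Eed iKO table and -0.03, -0.07 and -0.03 in the hair cycle table, so the numbers were not taken to pair the libraries, since not every correlation was above 0.1, although that of the libraries numbered 3 in the Eed iKO table was. Directions turned for uncalled genes of the Eed iKO comparison: Tgfbr1 to -0.046 without control replicate 2, Tgfb2 to -0.15, -0.17 and -0.24 without control replicate 3, Eed iKO replicate 1 and Eed iKO replicate 2, Tgfbr2 to -0.10 without Eed iKO replicate 2, Tgfb3 to 0.23 without Eed iKO replicate 3 and 0.22 without both libraries numbered 3, and Inhbb to 0.061 without both. With libraries left out in turn, these ranged from -0.046 to 0.26 for Tgfbr1, -0.24 to 0.81 for Tgfb2, -0.10 to 0.35 for Tgfbr2 and -0.37 to 0.23 for Tgfb3. The causes were not tested. No log2 fold change of the hair cycle comparison turned. With exon union lengths, 12 of 40 levels per kilobase moved by more than 1 SD, among them Tgfb1, which fell from rank 6 to rank 9 in anagen. Tgfb3 went from rank 8 to rank 6 in telogen, with its own level unchanged. The unknown depth of the hair cycle libraries limits what can be said of low counts there, such as those of Dcn and Inhba.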
